A study of Homo sapiens with 2 samples.

Results

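The genes described here are named for the proteins of the mitochondrial ribosome. They were chosen by symbol: a protein-coding gene entered if its symbol consists of MRPL or MRPS followed by digits alone. This gave 75 of the 22965 genes listed in the count data, and all 75 had a mean of at least 10 counts over the libraries, as did 15991 genes in all. RNA-seq was done on H460, a human large-cell lung cancer line, grown in DMEM with 10% fetal bovine serum. The vector library came from control cells, labelled vector, and the PKP2 library from cells in which pSin-puro delivered PKP2, the gene of the desmosomal plaque protein plakophilin 2. Both cultures were at passage 5, and each group had 1 library, so nothing below could be checked against the spread between cultures. The labels do not say whether the PKP2 cells were a pool or 1 clone. The study addressed which genes lie downstream of PKP2.

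The mitochondrial ribosome is built in the matrix from proteins made by nuclear genes and from rRNA made from the mitochondrial genome. It translates the few mRNAs of that genome, all for subunits of the respiratory chain and ATP synthase. Many of its proteins descend from those of bacterial ribosomes, and others were added in the mitochondrial lineage, so the particle is rich in protein beside its bacterial relatives. Growing cells depend on it to renew the enzymes of oxidative phosphorylation.

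In pairs of values below, the vector library comes first and the PKP2 library second. The vector library held 23513304 counts and the PKP2 library 20319137. PKP2 (ENSG00000057294) had 181 counts with the vector and 1330 with PKP2, 8.66-fold higher per scaled count (95% interval 7.41 to 10.2), in the direction of the labels. Of the epithelial markers, KRT8 had 16537 and 9369 counts, KRT18 5954 and 3795, KRT19 6501 and 11645, and EPCAM only 28 and 16, while CDH1 was not analysed here, nor were PTPRC, CD3E, PECAM1, CDH5, COL1A2 and DCN of other cell types. The endothelial markers VWF and KDR had 2 counts each with the vector and 0 with PKP2. Of the leukocyte markers, CD14 had 90 and 23 counts and CD68 had 362 and 412. Of 6 fibroblast markers 4 were measured, COL3A1 with 973 and 333 counts, COL1A1 with 132 and 48, PDGFRB with 111 and 208 and LUM with 24 and 22. Summed, the fibroblast markers stood at 52.3 and 30.3 CPM and these 2 leukocyte markers at 19.1 and 21.6 CPM. CPM is the count scaled to the library's total, here after the TMM method of edgeR. The part of these markers in the ratios below was not tested.

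The mitochondrial ribosomal protein genes had ratios spread closely around a median slightly below 0, and 2 of the 75, MRPL49 and MRPL34, were well over 2-fold higher in the PKP2 library. The log2 ratio of CPM, PKP2 library over vector library, had a median of -0.09 and a mean of -0.10 over the 75 genes, beside a median of -0.03 over all 15991 genes measured. It lay below 0 for 55 of the 75 genes, or 73.3%, against 52.7% of all genes measured. All 75 also reached a mean of 100 counts, and over the 10749 protein-coding genes of at least that depth, called well counted below, the median was 0.01 and 49.5% lay below 0. In bulk RNA, fewer cells of a kind and less RNA per cell cannot be told apart.

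For many single genes the difference was within counting error. Counts ran from 105 to 3342, with medians of 1122 with the vector and 827 with PKP2. The 95% exact binomial (Clopper-Pearson) interval of a gene's ratio covers counting error only, and its median half-width was 0.13. This interval lay wholly below 0 for 33 of the 75 genes, against 28.8% of all genes measured and 33.3% of the well-counted ones, and wholly above 0 for 11, against 25.9% and 33.9%. For the other 31 genes it held 0, so no difference was detectable at this depth. At least 1.5-fold lower were 3 genes, MRPL55, MRPL4 and MRPS24, against a background of 12.9% of all genes measured and 7.97% of well-counted protein-coding genes. At least 1.5-fold higher were MRPL49 and MRPL34 alone, against 6.87% and 4.6%. No gene was at least 2-fold lower (backgrounds 4.61% and 1.85%), and the same 2 genes were at least 2-fold higher (2.47% and 1.44%). At the 1.5-fold threshold, the 75 genes were thus called no more often than genes in general. At 2-fold higher, 2 of 75 is a larger share than either background, but it rests on these 2 genes alone.

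**Figure D1:**
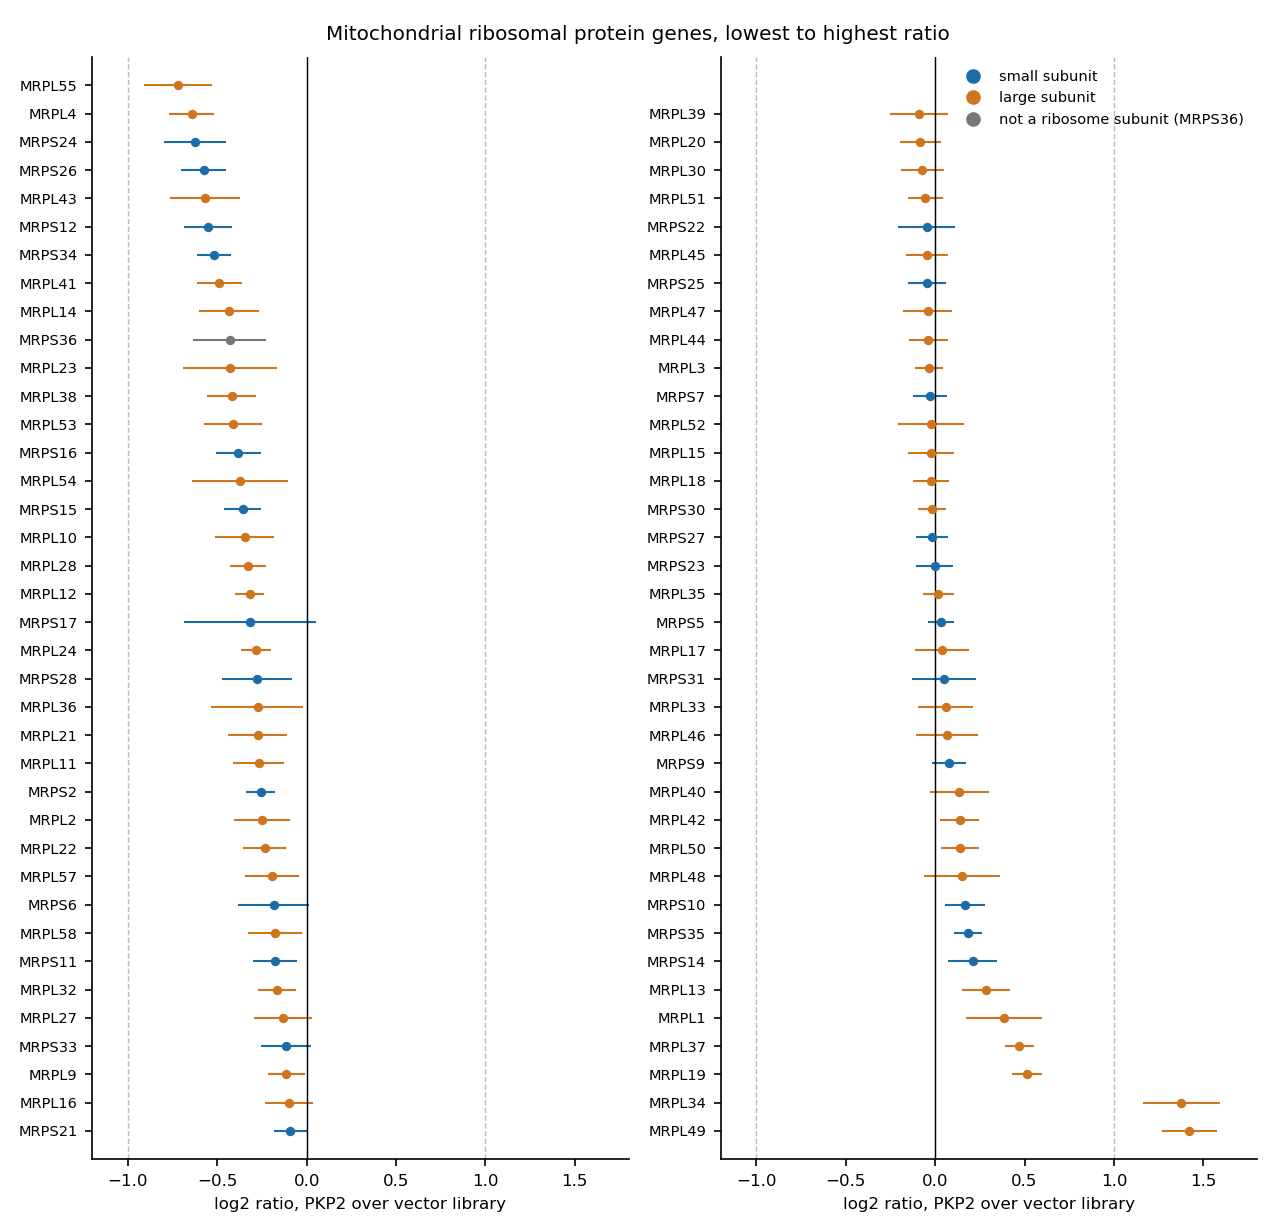
The 75 genes are ordered by their log2 ratio of CPM, PKP2 library over vector library, with points for single genes, bars for 95% counting intervals and dashed lines at 2-fold. Ratios run from -0.72 (MRPL55) to 0.51 (MRPL19), and MRPL34 and MRPL49 stand apart at 1.38 and 1.42.

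As a sum, the 75 genes took 0.411% of all counts in the vector library (exact binomial interval 0.409 to 0.414) and 0.384% in the PKP2 library (0.381 to 0.387). The log2 ratio of the summed CPM was -0.07. The small subunit genes took 0.155% and 0.140%, and the large subunit genes 0.255% and 0.242%. These shares differed by more than counting error, while their spread between cultures is unknown.

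Nuclear genes for mitochondrial proteins are known for binding of GABP, an ETS factor, and of NRF1 and YY1 near their start sites. Motifs were searched on both strands in the 250 bases before a start, in promoter windows from RefSeq (GRCh38.p14), which hold 66 of the 75 genes. Without a window were MRPL2, MRPL10, MRPL13, MRPL15, MRPL21, MRPL23, MRPL35, MRPS28 and MRPS36. A start here is that of the window. In MRPS22, which holds the ETS letters, it lies 338200 bases from the start of the principal transcript. In the other genes it lies at most 751 bases away (MRPL28), with 529 for MRPL38 and 558 for MRPL48. The ETS letters CCGGAAG were found before 23 of the 66 starts, or 34.8%, against 8.52% of all 35116 windows and 16.1% of 10425 other protein-coding genes measured. The YY1 letters AAGATGGC were found before 5 (7.58%, against 1.36% and 1.67%), namely MRPS12, MRPL36, MRPL32, MRPL47 and MRPL52. The NRF1 palindrome, GCGCA followed at once by its reverse complement, was found before MRPL17 alone (1.52%, against 1.03% and 1.96%). No match of 1 motif overlapped a match of another. The median ratio was -0.07 for genes with the ETS letters and -0.10 for the 43 genes without them. The stretches below are shown because they hold the commonest of the 3 motifs in the genes with the 4 lowest and the 4 highest ratios among the 18 of the 23 that could be shown with 11 bases on either side before the start. Each is written 5′ to 3′ on the gene's strand. In capitals is the match to the ETS motif, as written or as its reverse complement, that lies nearest the start among those that could be shown. The stretch of MRPS34 holds a further match, left in lower case.
MRPS26, chr20:3046004-3046032, plus strand: tccccgcgccgCTTCCGGggcacggtggc
MRPL43, chr10:100987498-100987526, minus strand: tcgtcccggaaCCGGAAGcctcgaggttt
MRPS34, chr16:1773136-1773164, minus strand: tcttccggtgaCTTCCGGccggaccgctg
MRPL38, chr17:75905075-75905103, minus strand: tccaacgggcaCTTCCGGagccgggcgtc
MRPL18, chr6:159790430-159790458, plus strand: gggacttgctaCTTCCGGgtcggtggcgt
MRPS31, chr13:40771205-40771233, minus strand: aaggcgccaggCCGGAAGcggaagagagg
MRPL48, chr11:73787800-73787828, plus strand: aatttcagaagCTTCCGGaactaaaatga
MRPS10, chr6:42217866-42217894, minus strand: ccgctgtaaccCCGGAAGcaatcctgaga

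In these 8 genes the match ended between 12 bases (MRPL43) and 202 bases (MRPL38) before the start, and it stood within 40 bases of the start in 6 of them. Their ratios ran from -0.58 (MRPS26) to 0.17 (MRPS10), a range set by how they were chosen. MRPS35, MRPS14, MRPL1, MRPL37 and MRPL19, with higher ratios, had windows without the ETS letters. MRPL49, MRPL34, MRPL55, MRPL4 and MRPS24, the 5 genes past 1.5-fold, held none of the 3 motifs in their windows. The same was true of 39 of all 66 windows, and only 18.9% of the 10425 other genes held any of the 3. Lacking the motifs was thus common and does not mark out these 5. A match describes letters and is not a measured binding site, and its absence says only that these letters are not in this window.

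The small subunit binds the mRNA and decodes it, and 24 of the genes encode its proteins. Its median ratio was -0.10, with 18 of 24 genes below 0 and none at least 1.5-fold higher. MRPS24 (ENSG00000062582) had 757 counts with the vector and 417 with PKP2, or 31.9 and 20.7 CPM. Its ratio was -0.62 (interval -0.80 to -0.45), and 27.4% of its stretches of 31 bases also occur in other listed genes, among them the read-through gene URGCP-MRPS24, which had only 5 and 2 counts. MRPS26, a protein with no bacterial counterpart, had 1443 and 822 counts, a ratio of -0.58 (-0.70 to -0.45). MRPS34, likewise without one, was the third highest of the 75 genes per transcript length in the vector library, and had 2400 and 1420 counts, a ratio of -0.52 (-0.62 to -0.43). All 3 counting intervals lay wholly below 0. After a correction for GC content, which subtracts the trend of the ratio with transcript GC content over all well-counted genes, MRPS24 stood at -0.38, MRPS26 at -0.13 and MRPS34 at -0.01.

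MRPS12 is the counterpart of the bacterial protein S12 at the decoding centre, where codon and anticodon are matched. It had 1225 counts with the vector and 709 with PKP2, a ratio of -0.55 (-0.69 to -0.42). The ratio was -0.30 after the GC correction. MRPS12 overlaps the gene of the mitochondrial seryl-tRNA synthetase SARS2 on the opposite strand, and the 2 genes summed had a ratio of -0.40 (-0.51 to -0.29). At the other end, MRPS14, the counterpart of S14, had 871 and 855 counts and a ratio of 0.21 (0.07 to 0.35). MRPS35 had 2605 and 2510 counts, a ratio of 0.18 (0.10 to 0.26), and MRPS10 had 1361 and 1298 counts, a ratio of 0.17 (0.06 to 0.28). These 3 had fewer counts in the smaller PKP2 library and were higher only per scaled count, and each stood at 0.01 after the GC correction.

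The symbols of 2 genes do not give their subunit. MRPS30 encodes a large-subunit protein and had 2846 and 2383 counts, a ratio of -0.02 (-0.10 to 0.06). MRPS36 (KGD4) encodes a component of the alpha-ketoglutarate dehydrogenase complex and not a ribosomal protein, so it was put in neither subunit. It had 526 and 331 counts, a ratio of -0.43 (-0.63 to -0.23). Its transcript has 35.0% GC, among the lowest of the 75, and other genes of such GC content were higher in the PKP2 library, so its ratio was -0.74 after the GC correction.

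The large subunit forms the peptide bond and passes the chain out through its exit tunnel, and 50 of the genes encode its proteins. Its median ratio was -0.09, with 36 of 50 genes below 0, and it was 0.01 after a correction for transcript length. The difference between the medians of the small and the large subunit was -0.02 (-0.01 after the GC correction, -0.10 after the length correction). The large subunit held both the lowest ratio, that of MRPL55, and the highest, that of MRPL49.

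The stalk and its base recruit the translation factors to the ribosome, and their 5 genes were all lower in the PKP2 library. Of all genes measured 52.7% had ratios below 0, and of well-counted protein-coding genes 49.5%. MRPL12, the counterpart of the bacterial stalk protein L7/L12 and the highest of the 75 genes per transcript length, had 3094 and 2106 counts, a ratio of -0.32 (-0.40 to -0.24). MRPL10, which anchors it, had 745 and 497 counts, a ratio of -0.35. MRPL11, at the stalk base, had 980 and 690 counts, a ratio of -0.27. The remaining members are MRPL53, with 815 and 520 counts and a ratio of -0.41, and MRPL54, with 293 and 192 counts and a ratio of -0.37. The 5 ratios lay between -0.41 and -0.27. Each counting interval lay wholly below 0, as for 28.8% of all genes measured and 33.3% of the well-counted ones. With 5 genes chosen by position in the particle, the median of -0.35 is a description. After the GC correction it was -0.23, with 4 of the 5 below 0 and MRPL12, whose transcript has 64.6% GC, at 0.18. Of those 4, MRPL54 stood at only -0.03. In MRPL53, 42.3% of such stretches occur in other listed genes, the most among the 75, and it overlaps CCDC142 on the same strand.

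Proteins at the rim of the exit tunnel meet the new chain as it leaves toward the inner membrane. Of their 7 genes all had ratios below 0, against 52.7% of all genes measured and 49.5% of the well-counted ones, with a median of -0.09. After the GC correction 6 of the 7 were below 0, with MRPL23 at 0.14 and a median of -0.15, and after the length correction the median was 0.04. MRPL24 had 2657 and 1853 counts, a ratio of -0.28 (-0.37 to -0.20). MRPL23 had 314 and 198 counts, a ratio of -0.43, and MRPL22 had 1377 and 993 counts, a ratio of -0.24. For these 3 the interval lay wholly below 0. MRPL39, MRPL44, MRPL45 and MRPL47 lay between -0.09 and -0.04, within their counting error. MRPL45 is the protein that ties the mitochondrial ribosome to the inner membrane, and it had 1367 and 1124 counts.

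The central protuberance lies where the large subunit meets the small one over the tRNAs, and its 8 genes went both ways, 5 below 0 and 3 above. MRPL55 (ENSG00000162910), the lowest of the 75, had 666 counts with the vector and 343 with PKP2, or 28.1 and 17.0 CPM. It was 1.65-fold lower, a ratio of -0.72 (-0.91 to -0.53), and -0.51 after the GC correction, and it shares no 31-base stretch with another listed gene. MRPL38 had 1097 and 696 counts, a ratio of -0.42 (-0.56 to -0.28). MRPL18, MRPL27 and MRPL52 lay at -0.02, -0.13 and -0.02, and MRPL46, MRPL40 and MRPL48 at 0.07, 0.13 and 0.15, all 6 within their counting error. The median of the 8 was -0.02, and 0.06 after the GC correction and 0.12 after that for length.

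Near the peptidyl transferase centre, MRPL2 had 796 and 568 counts, a ratio of -0.25 (-0.41 to -0.09), and MRPL3 had 2847 and 2357 counts, a ratio of -0.04 (-0.12 to 0.04). Of large-subunit proteins outside these sites, MRPL4 had 1495 and 812 counts, a ratio of -0.64 (-0.77 to -0.52). Its transcript has 64.1% GC, and the ratio was -0.17 after the GC correction. MRPL41, with 1367 and 826 counts and a ratio of -0.49 (-0.62 to -0.36), has the most GC of all 75 at 71.9% and stood at 0.33 after it. MRPL14 had 757 and 475 counts, a ratio of -0.44, and -0.28 after the correction. The ratios of MRPL4 and MRPL41 thus depended on the correction, and that of MRPL41 turned its sign.

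MRPL43 had 589 and 337 counts, a ratio of -0.57 (-0.77 to -0.37). It overlaps TWNK, the gene of the mitochondrial helicase Twinkle, and SEMA4G on the opposite strand, and the 3 genes summed had a ratio of 0.05 (-0.04 to 0.15). TWNK itself had 1185 and 1271 counts, a ratio of 0.34. Whether the counting used strand is not given in the sources used here, so reads of such partners cannot be told apart.

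MRPL49 (ENSG00000149792), a large-subunit protein of the mitochondrial lineage, had the highest ratio. It had 511 counts with the vector and 1162 with PKP2, or 21.5 and 57.7 CPM. It was 2.68-fold higher, a ratio of 1.42 (1.27 to 1.57). Both genes whose exons it overlaps on the opposite strand were lower in the PKP2 library. FAU, which encodes a ubiquitin-like protein fused to the cytosolic ribosomal protein eS30, had 2498 and 1509 counts, a ratio of -0.49 (-0.58 to -0.40), and shares 282 exonic bases with it. SYVN1, the ubiquitin ligase HRD1 of the endoplasmic reticulum, had 972 and 525 counts, a ratio of -0.65 (-0.81 to -0.50), and shares 356. The 3 genes summed had 3981 and 3196 counts, a ratio of -0.08 (-0.15 to -0.01). The higher count of MRPL49 thus stood beside lower counts of its partners, and a shift of reads between them cannot be told apart from a difference in MRPL49 RNA.

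MRPL34 (ENSG00000130312), the counterpart of the small bacterial protein L34, had 263 counts with the vector and 580 with PKP2, or 11.1 and 28.8 CPM. It was 2.60-fold higher, a ratio of 1.38 (1.16 to 1.59). Its overlap partner on the opposite strand, ABHD8, had only 40 and 35 counts, and the sum of the 2 genes kept a ratio of 1.26 (1.06 to 1.46). ABHD8 had few counts beside MRPL34, while FAU alone had more counts than MRPL49 in both libraries. The sum with overlapping genes was higher in the PKP2 library for MRPL34 but not for MRPL49 (-0.08). Whether reads shifted between genes was not tested.

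**Figure D2:**
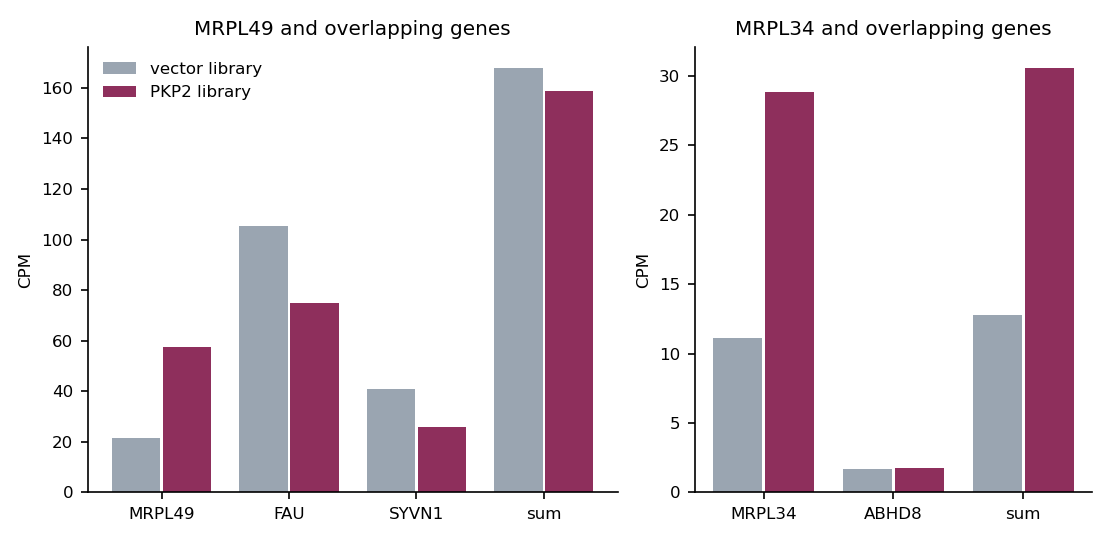
Bars give CPM in the vector and the PKP2 library for MRPL49 (left) and MRPL34 (right), for the listed genes whose exons they overlap on the opposite strand, and for the sums; each bar is 1 library. MRPL49 stands at 21.5 and 57.7 CPM while the sum with FAU and SYVN1 goes from 168 to 159, and the sum of MRPL34 and ABHD8 goes from 12.8 to 30.5.

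After these 2, MRPL19 had the next highest ratio, with 2016 and 2441 counts and a ratio of 0.51 (0.43 to 0.60). MRPL37 had 2393 and 2815 counts, a ratio of 0.47 (0.39 to 0.55), and MRPL1, a protein of the L1 stalk where the spent tRNA leaves, had 349 and 387 counts, a ratio of 0.39 (0.17 to 0.60). MRPL13 had 902 and 933 counts, a ratio of 0.29 (0.15 to 0.42). These 4 were higher in raw counts too, although the PKP2 library was the smaller one. Summed with the overlapping GCFC2, MRPL19 stood at 0.48, and MRPL37 with its 3 overlapping genes at 0.34. After the GC correction MRPL37 stood at 0.64, while MRPL19 stood at 0.28 and MRPL1 at 0.17.

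Overlaps and copies of this kind were common among the 75 genes. In exons, 33 genes overlapped another listed gene, 15 on the same strand and 21 on the opposite one, some on both. Pseudogenes, recognised by symbol and listed as separate genes, existed for 12, in all 13 pseudogenes with 218 and 264 counts. Most of these counts were those of MRPS31P5 (95 and 132) and MRPS31P4 (68 and 79). At least 20% of their 31-base stretches were shared with other listed genes in 11. The 34 genes with none of these had a median ratio of -0.15, with 27 of 34 below 0. Their median was -0.09 after the GC correction and -0.04 after correcting for GC content and then length, beside -0.09 and -0.07 for all 75.

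By origin, the 45 genes with a counterpart in bacterial ribosomes had a median ratio of -0.17, with 34 below 0. The 29 ribosomal genes without one had a median of -0.04, with 20 below 0. After the GC correction the medians were -0.10 and -0.08, so the gap between the classes was smaller after it.

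Transcript GC content moved with the ratio across the whole data set. Over 11535 other well-counted genes of any type, Spearman's rho of ratio and GC content was -0.61, and over the 75 genes it was -0.58 (-0.65 without MRPL34 and MRPL49). Both are across genes of 1 pair of libraries, which are no replicates of each other. At the low end of GC content, 25 of the 75 had a median ratio of 0.02, where other genes of that range had 0.17. The 25 in the middle had -0.08, beside -0.01, and the 25 with the highest GC content had -0.36, beside -0.27. In each range the mitochondrial ribosomal protein genes thus had the lower median.

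Subtracting the curve of ratio on GC content left the median at -0.09, with 54 of 75 genes below 0, against 51.1% of all genes with a GC value and 47.9% of the well-counted ones. After it 1 gene was at least 1.5-fold lower, MRPS36 (backgrounds 8.77% and 3.96%), and 3 were at least 1.5-fold higher, MRPL49, MRPL34 and MRPL37 (6.3% and 3.91%). The genes are also short, with a median principal transcript of 1455 bases against 3231 for the other genes, and the ratio had a rho of 0.35 with length over the 75. Correcting for length alone moved the median to -0.01, with 39 of 75 below 0, and correcting for GC content and then length gave -0.07, with 46 below 0. The lower median was therefore as large after the GC correction but nearly gone after that for length.

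**Figure D3:**
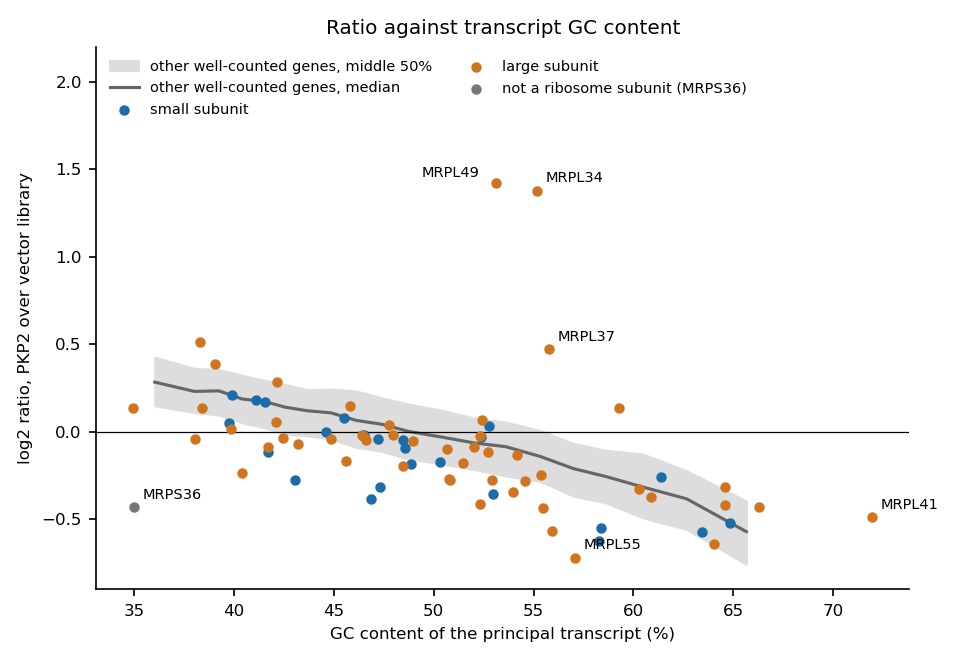
The log2 ratio of CPM is plotted against GC content of the principal transcript (%), with 1 point per gene for the 75 genes, and a line and band for the median and middle 50% of other well-counted genes. The points follow the falling line, mostly a little under it, with MRPL49, MRPL34 and MRPL37 above it and MRPS36 below it at 35.0% GC.

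Most of these proteins are present once per ribosome, and their RNA levels per transcript length were compared within each library. Levels in CPM per kilobase had a median of 27.2 with the vector and 28.6 with PKP2. In the vector library the highest was MRPL12 at 127 CPM per kilobase (102 in the PKP2 library), with MRPL24 close to it at 127 (104), followed by MRPS34 at 98.8 (68.9) and MRPS5 at 85.3 (87.2). The lowest was MRPS17 at 3.52 (2.83), then MRPL42 at 3.72 (4.09), MRPS33 at 9.55 (8.82) and MRPL1 at 9.87 (12.9). The low place of MRPL42 rests on a principal transcript of 15582 bases in the annotation, by far the longest of the 75. In MRPS17, 40.2% of the stretches of 31 bases occur in other listed genes.

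The order of the genes was nearly the same in both libraries, with a Spearman rho of 0.93 over the 75 levels per kilobase. The highest level was 36.1 times the lowest in the vector library, and the 90th percentile was 5.50 times the 10th in the vector library and 5.26 times in the PKP2 library. MRPL49 and MRPL34 stood near the low end in the vector library, at 10.7 and 11.5 CPM per kilobase, and near the middle in the PKP2 library, at 28.6 and 29.8. The other ratios were thus small beside the spread of levels between genes of the same ribosome.

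**Figure D4:**
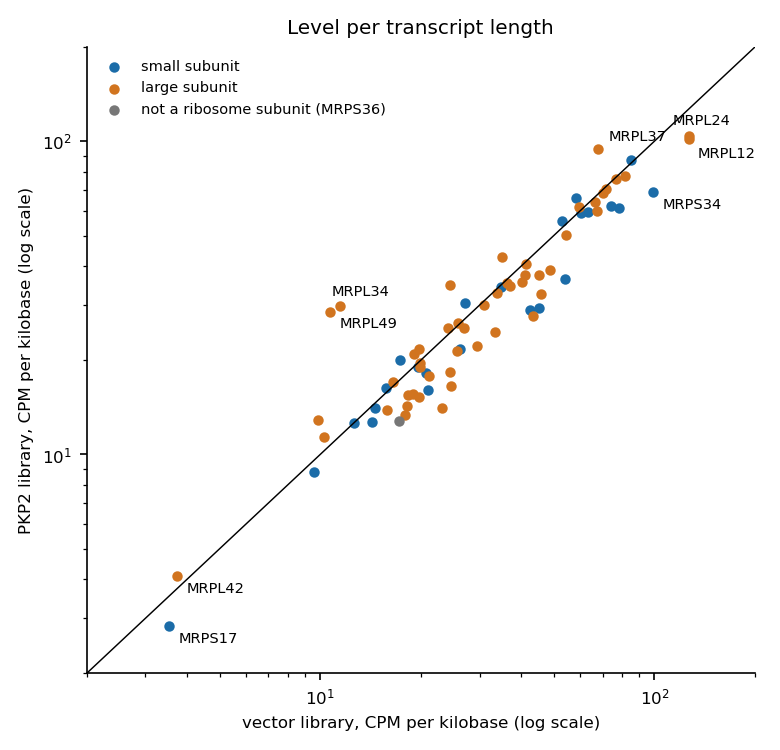
Levels in CPM per kilobase of principal transcript are plotted for the vector library (horizontal) and the PKP2 library (vertical), both on log scales, with 1 point per gene, coloured by subunit, and a line at equal levels. Points lie close to the line over the whole range except MRPL34 and MRPL49, which lie well above it.

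Other genes of mitochondrial translation were described from lists of the ribosome's partners. Proteins of the particle whose symbols fall outside the rule numbered 8, with a median ratio of -0.11 and 5 below 0. AURKAIP1, a small-subunit protein, had 1332 and 771 counts, a ratio of -0.55 (-0.68 to -0.42), and GADD45GIP1 (CRIF1), a large-subunit protein, had 848 and 529 counts, a ratio of -0.44. CHCHD1 stood at -0.34, MRPS18A, MRPS18B and MRPS18C at -0.13, -0.08 and 0.09, PTCD3 at 0.06 and DAP3, which binds GTP in the small subunit, at 0.09 (4200 and 3796 counts). AURKAIP1, with 67.9% GC, stood at 0.09 after the GC correction, GADD45GIP1 at -0.13, CHCHD1 at -0.39 and the median of the 8 at -0.03.

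Factors that assemble the ribosome had a median of -0.12, with 19 of 27 below 0, and -0.03 after the GC correction. At least 1.5-fold lower were 2 of the 27, DDX28 and GTPBP10, against 12.9% of all genes measured and 7.97% of well-counted protein-coding genes. DDX28, an RNA helicase of large-subunit assembly, had 1194 and 612 counts, a ratio of -0.73 (-0.87 to -0.59), and -0.48 after the GC correction. GTPBP10, a GTPase of the same pathway, had 825 and 435 counts, a ratio of -0.69 (-0.86 to -0.52) that moved to -0.98 after the GC correction. At least 1.5-fold higher was MTERF4 alone (backgrounds 6.87% and 4.6%). MTERF4, which brings the rRNA methyltransferase NSUN4 to the large subunit, had 327 and 457 counts, a ratio of 0.72 (0.51 to 0.93). MPV17L2 and MALSU1 stood at -0.47 and -0.45, and MPV17L2 at -0.15 after the GC correction. After the GC correction 2 of the 27 were at least 1.5-fold lower, GTPBP10 and MALSU1 (-0.65), against backgrounds of 8.77% and 3.96%. Then 2 were at least 1.5-fold higher, MTERF4 and MTG2 (0.70), against 6.3% and 3.91%. The assembly factors, like the ribosomal proteins, went both ways.

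Translation factors had a median of 0.03, with 8 of 17 below 0, and -0.08 after the GC correction. TUFM, the elongation factor that brings tRNAs to the ribosome, had 11050 and 7074 counts, a ratio of -0.41 (-0.45 to -0.36). Its exchange factor TSFM had 541 and 705 counts, a ratio of 0.62 (0.45 to 0.78), so the 2 partners went opposite ways. The peptide deformylase PDF had 188 and 97 counts, a ratio of -0.72 (-1.09 to -0.36). TACO1, which activates translation of MT-CO1, had 1766 and 1084 counts, a ratio of -0.47. MTFMT, which formylates the initiator tRNA, had 403 and 448 counts, a ratio of 0.39. After the GC correction TUFM stood at -0.18, TSFM at 0.55, PDF at -0.32, TACO1 at -0.25 and MTFMT at 0.30.

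Enzymes that charge mitochondrial tRNAs had a median of -0.08, with 12 of 20 below 0 and none past 1.5-fold in either direction. AARS2 stood lowest at -0.41 and WARS2 highest at 0.21, and after the GC correction they stood at -0.13 and 0.07. Genes of mitochondrial transcription and RNA handling had a median of 0.11, with 7 of 22 below 0, and -0.00 after the GC correction. MTERF1, a termination factor of mitochondrial transcription, had 330 and 613 counts, a ratio of 1.13 (0.93 to 1.33), the highest among the genes of these partner lists. POLRMT, the mitochondrial RNA polymerase, had 1279 and 691 counts, a ratio of -0.65 (-0.79 to -0.52), and -0.08 after the GC correction. PRORP, REXO2 and FASTK stood at 0.47, 0.47 and -0.46, and after the GC correction at 0.33, 0.43 and -0.02.

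The mitochondrial rRNAs MT-RNR1 and MT-RNR2 had ratios of 0.04 and -0.04. The 13 mitochondrially encoded mRNAs had a median of 0.02, from -0.10 (MT-CO2) to 0.20 (MT-ND4L). After the GC correction the rRNAs had a median of -0.10 and the mRNAs of -0.08, with 11 of 13 below 0, and after the length correction the mRNAs had a median of 0.17, so their direction turned with the correction. All mitochondrially encoded genes together took 8.07% and 7.94% of counts. Of 11 regulators of nuclear genes for mitochondria, ESRRA stood at -0.65 (609 and 330 counts), HCFC1 at -0.50 and MYC at -0.30, PPRC1 at -0.21, NRF1, YY1 and PPARGC1B at -0.04 each, GABPB1 at 0.05, PPARGC1A at 0.14, GABPB2 at 0.20 and GABPA, which binds the ETS letters above, at 0.35. After the GC correction ESRRA stood at -0.21, HCFC1 at -0.13 and GABPA at 0.07. The median of the 11 was -0.04 before and after it.

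**Figure D5:**
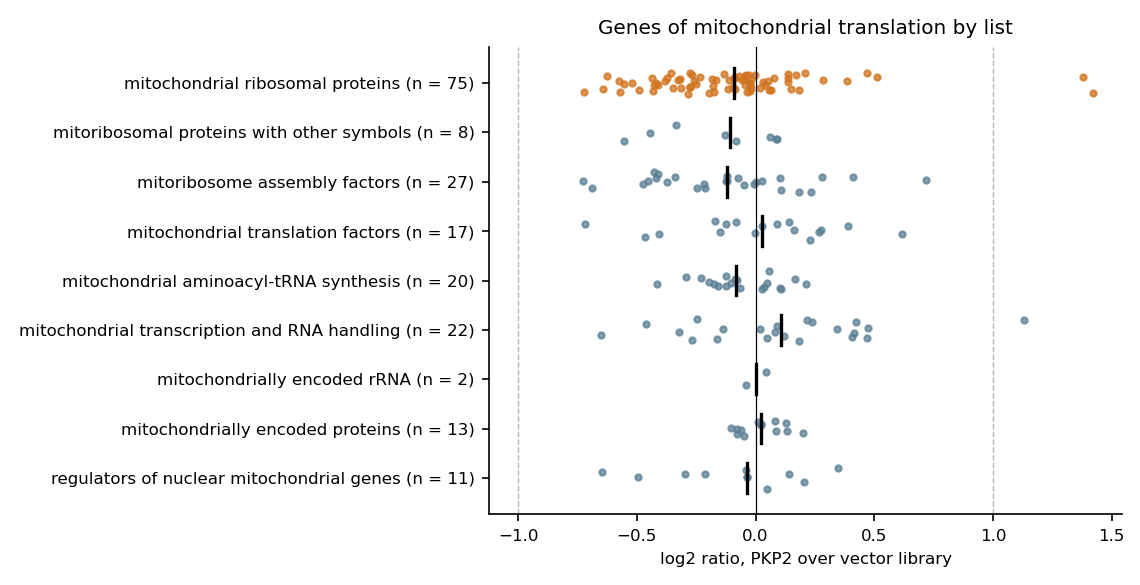
Each point is the log2 ratio of CPM, PKP2 library over vector library, of 1 measured gene, in rows by list, with a black bar at the list's median and dashed lines at 2-fold; the vertical place within a row is arbitrary. List medians lie between -0.12 and 0.11, and MRPL34, MRPL49 and MTERF1 are the only points past 2-fold.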

How the data were processed

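Libraries were prepared from Trizol-extracted total RNA with an Illumina TruSeq kit, according to the labels' protocols. Bowtie 0.12.2 and the builds GRCh37 and hg19 are named in the submitters' processing notes. Not given in the sources used here are the counting program, its annotation and its use of strand. The authors deposited 1 value per Ensembl gene ID, not normalized, classed as estimated counts because 1 damaged row per file holds a decimal; all other values were whole, so none was rounded. In each file 2 rows were left out, 1 damaged and 1 with no value, and their share of counts cannot be given. Symbols were found for 22579 of 22965 IDs.

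Library sizes were totals times edgeR's TMM factors (edgeR 4.0.16 under R 4.3.3; 1.01 for vector, 0.991 for PKP2) and served for scaling alone. Ratios used no pseudocount, and genes had to average at least 10 counts. No p-value was computed, because edgeR's test needs replicates to estimate the spread. Intervals cover counting error only. Without molecular identifiers reads may repeat a molecule, so the intervals may be too narrow even for counting error. GC content, length, overlaps and shared stretches of 31 bases came from GENCODE release 29, by gene ID, and 99.4% of genes measured had a GC value. Curves were lowess fits (statsmodels 0.14.6, fraction 0.3) to well-counted genes, those averaging at least 100 counts. Each promoter window was the one nearest the principal transcript's start, with no limit set on the distance. Stretches were printed for the 4 lowest and 4 highest ratios among 18 genes whose ETS match has 11 bases on either side before the start. Scripts ran in Python 3.11.15 with SciPy 1.17.1 and were tested on simulated data.

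Values were named for PKP2, the 10 lowest and 10 highest ratios, genes past 1.5-fold, the 4 highest and 4 lowest levels per length, the genes of the structural sites, MRPS30, MRPS36, and up to 5 genes per list with the ratios farthest from 0 (all of lists with up to 13). Overlapping and marker genes are named as such. The genes, lists and classes were chosen with earlier results of these data known. Alternatives were other scalings (DESeq2 1.42.0 size factors, upper quartile, totals), pseudocounts, filters and corrections. Correcting for GC content and length in turn, leaving out MRPL34 and MRPL49, and summing overlapping genes were added after the data were seen.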

Additional observations from a re-analysis of the deposited data

How the results depend on the processing

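No paired analysis was possible because each group has 1 library, and for the same reason no replicate could be left out. The median over the 75 genes stayed below 0 under every alternative run, from -0.12 with total counts alone to -0.01 after the length correction. The count at least 1.5-fold lower, 3 genes, became 5 with total counts alone, 1 after correcting for GC content, 1 after correcting for length and 1 after both in turn, and at a threshold of 2-fold it was 0. As a share of counts outside mitochondrially encoded genes, the 75 genes took 0.448% with the vector and 0.417% with PKP2. The median of the mitochondrially encoded proteins was 0.17 after the length correction.

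Of genes whose counting interval excluded 0, 7 changed sign after the GC correction, to 0.33 for MRPL41, 0.14 for MRPL23, 0.077 for MRPL38, 0.18 for MRPL12, 0.10 for MRPS2, -0.10 for MRPL42 and -0.17 for MRPL50. Of the same kind, after the length correction MRPL9 stood at 0.0012, MRPS21 at 0.0092 and MRPL42 at -0.018. Summed with overlapping genes, MRPL43 stood at 0.052, MRPL32 at 0.021 and MRPL49 at -0.080. Such a sum weighs a partner by all its counts, however short the overlap. MRPL32 shares only 24 exonic bases with PSMA2, which had 3096 and 2840 counts. Genes whose interval held 0 changed sign too, among them MRPS6, MRPS22 and MRPS27, at 0.15, 0.15 and 0.10 when summed. MRPS22 shares only 86 exonic bases with COPB2, which had 4554 and 4387 counts. After the length correction 39 of 75 lay below 0. PKP2 and the 75 genes stayed within their counting intervals under total counts, DESeq2 size factors, upper-quartile scaling and 1 CPM added. With 5 CPM added MRPL34, MRPL49 and PKP2 stood at 1.07, 1.24 and 2.49. Depth limits the ratios least for MRPS5 and most for MRPS17, with intervals of half-width 0.07 and 0.37.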
